A study of Mus musculus with 20 samples.

Results

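The assembly factors of the small ribosomal subunit described here are 46 genes, chosen by symbol from a list of proteins of the small-subunit processome and of later pre-40S maturation. All 46 listed symbols were present among the 38784 symbols of the deposited table. The study gave FVB/N mice, 6 to 8 weeks of age, lipid nanoparticles (LNP) through the tail vein that carried siRNA against Eif3m, a subunit of the translation initiation factor eIF3, or a scrambled luciferase control siRNA. Both formulations were given at 0.5 mg/kg with 1 injection in 5 days, and livers were taken after 9 days (3 mice per siRNA) or 13 days (2 mice per siRNA). RNA-seq and ribosome footprints (Ribo-seq) were made from each of the 10 livers, so there were 20 libraries in 8 groups. Both siRNAs came in the same carrier. Uninjected mice and a second siRNA to Eif3m were not analysed here.

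The small subunit begins as a long precursor RNA that is bound, while it is still being transcribed in the nucleolus, by the processome. The UtpA and UtpB complexes bind its leader, the U3 small nucleolar ribonucleoprotein base-pairs with it, and further proteins fold, modify and cut it. The particle that leaves the processome, the pre-40S, is then exported and finished in the cytoplasm. In a resting liver this pathway runs at a low rate and is raised when hepatocytes grow or divide.

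Of the 46 genes, 4 rose in all 4 within-day comparisons (RNA and footprints, day 9 and day 13): Ngdn, Nop14, Nop56 and Nop58. For these 4 the 250 bases before the start used by the promoter table are shown, because they are the genes on which the results below turn. They come from the RefSeq promoter table for GRCm38.p6 and run 5′ to 3′ on the strand of the gene. Ngdn lies at chr14:55015204-55015453, plus strand. Nop14 lies at chr5:34660149-34660398, minus strand. Nop56 lies at chr2:130274162-130274411, plus strand. Nop58 lies at chr1:59684756-59685005, plus strand. The RefSeq gene intervals of Nop56 and Nop58 begin before that start, so the last 45 bases of each of these stretches lie inside the annotated gene. Capitals mark the letters CCGGAA or their reverse complement TTCCGG.
Ngdn: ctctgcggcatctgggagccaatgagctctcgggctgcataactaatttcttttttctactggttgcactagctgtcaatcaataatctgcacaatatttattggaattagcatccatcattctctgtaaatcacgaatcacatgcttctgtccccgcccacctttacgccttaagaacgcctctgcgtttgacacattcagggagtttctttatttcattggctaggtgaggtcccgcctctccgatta
Nop14: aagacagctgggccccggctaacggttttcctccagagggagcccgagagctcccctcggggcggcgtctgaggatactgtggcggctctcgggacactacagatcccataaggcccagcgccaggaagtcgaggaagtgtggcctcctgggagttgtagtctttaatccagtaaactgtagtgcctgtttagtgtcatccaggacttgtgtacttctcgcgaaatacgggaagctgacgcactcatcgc
Nop56: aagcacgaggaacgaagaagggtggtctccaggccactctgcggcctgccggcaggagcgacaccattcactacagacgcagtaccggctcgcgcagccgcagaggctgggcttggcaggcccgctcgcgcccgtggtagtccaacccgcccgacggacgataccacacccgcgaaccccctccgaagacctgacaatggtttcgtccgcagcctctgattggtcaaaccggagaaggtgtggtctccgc
Nop58: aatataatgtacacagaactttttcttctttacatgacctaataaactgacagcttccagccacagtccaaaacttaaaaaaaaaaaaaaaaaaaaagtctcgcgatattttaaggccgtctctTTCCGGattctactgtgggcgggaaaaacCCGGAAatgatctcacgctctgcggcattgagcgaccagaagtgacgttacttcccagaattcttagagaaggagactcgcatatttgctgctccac

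CCGGAA, letters found in many sites of ETS factors, occurred in the Nop58 stretch at 126 and 97 bases before the start in the promoter table and in none of the other 3. CACGTG, the E-box that Myc can bind, was in none of the 4. The promoter table held 38 of the 46 genes and lacked Dcaf13, Fbl, Fcf1, Nol6, Rrp12, Tbl3, Utp6 and Wdr36. CCGGAA on either strand was in 17 of the 38 stretches (44.7%), in 19.8% of the stretches of genes tested in RNA and in 12.03% of all stretches of the same length in the table. CACGTG, which reads the same on both strands, was in 5 of 38 (13.2%): Aatf, Imp4, Nol11, Rrp7a and Utp18. It was in 7.90% of the stretches of genes tested in RNA. The motifs were searched separately, and neither overlaps the other. These are matches of letters and not sites.

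Library totals ran from 27366965 to 39016524 counts in day 9 RNA and from 4964912 to 26401320 counts in day 13 RNA. In footprints they ran from 4502229 to 7689829 counts at day 9 and from 1635290 to 6519799 counts at day 13. Levels are given as CPM, counts per 1000000 of a library total scaled by TMM, and changes as edgeR log2 differences ± SE. The SE was derived as the absolute log2 difference divided by the square root of F from the edgeR quasi-likelihood F test. Eif3m RNA stood at 75.8, 73.8 and 74.2 CPM in control mice and 8.27, 7.26 and 7.67 CPM in Eif3m-siRNA mice at day 9, and at 241 and 340.5 CPM in control mice and 20.3 and 15.2 CPM in Eif3m-siRNA mice at day 13. Its footprints fell by 3.61 ± 0.17 on the log2 scale at day 9 and by 4.58 ± 0.26 at day 13 (adjusted p = 4.69e-11 and 1.67e-09).

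Among the 46 genes, 9 rose and none fell in RNA at day 9, when 2.48% of the 16444 genes tested rose and 3.19% fell (edgeR quasi-likelihood test, Benjamini-Hochberg adjusted p below 0.05). At day 13, 14 rose in RNA and none fell, against 6.09% and 9.87% of all genes. In footprints 15 rose at day 9 and 17 at day 13, and none fell on either day. Of the 12213 genes tested in footprints 6.84% rose and 7.9% fell at day 9, and 6.12% rose and 6.28% fell at day 13. At an unadjusted p below 0.05, 19, 23, 23 and 29 of the 46 passed in day 9 RNA, day 13 RNA, day 9 footprints and day 13 footprints (41.3%, 50%, 50% and 63.0%). Of all genes tested 20.6%, 30.9%, 28.8% and 25.3% did so.

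The median log2 change of the 46 was 0.24 in RNA at day 9 and 0.40 at day 13. All genes tested had medians of -0.00 and -0.16. In footprints the medians were 0.34 at day 9 and 0.67 at day 13, beside 0.02 for all genes on both days. The sign was positive for 39 and 37 genes in RNA and for 42 and 45 in footprints, and for 34 genes in all 4 comparisons. Esf1, a factor of the early processome, and Nol6 were the only members below 0 in at least 3. Every Eif3m-siRNA library lay above every control library for 27 genes in day 9 RNA, where 18.9% of all genes did so, and for 26 in day 13 RNA, against 18% of all genes. In footprints this held for 23 genes at day 9 (15.7% of all genes) and for 32 at day 13 (28.1%). Among the 46 the opposite order was seen in RNA alone, for Emg1, Esf1 and Nol6 at day 9 and for Utp6 at day 13. Of the 16444 genes tested in RNA, 3346 at day 9 and 4789 at day 13 had that order. In footprints 1989 and 3312 of the 12213 genes tested had it.

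**Figure D1:**
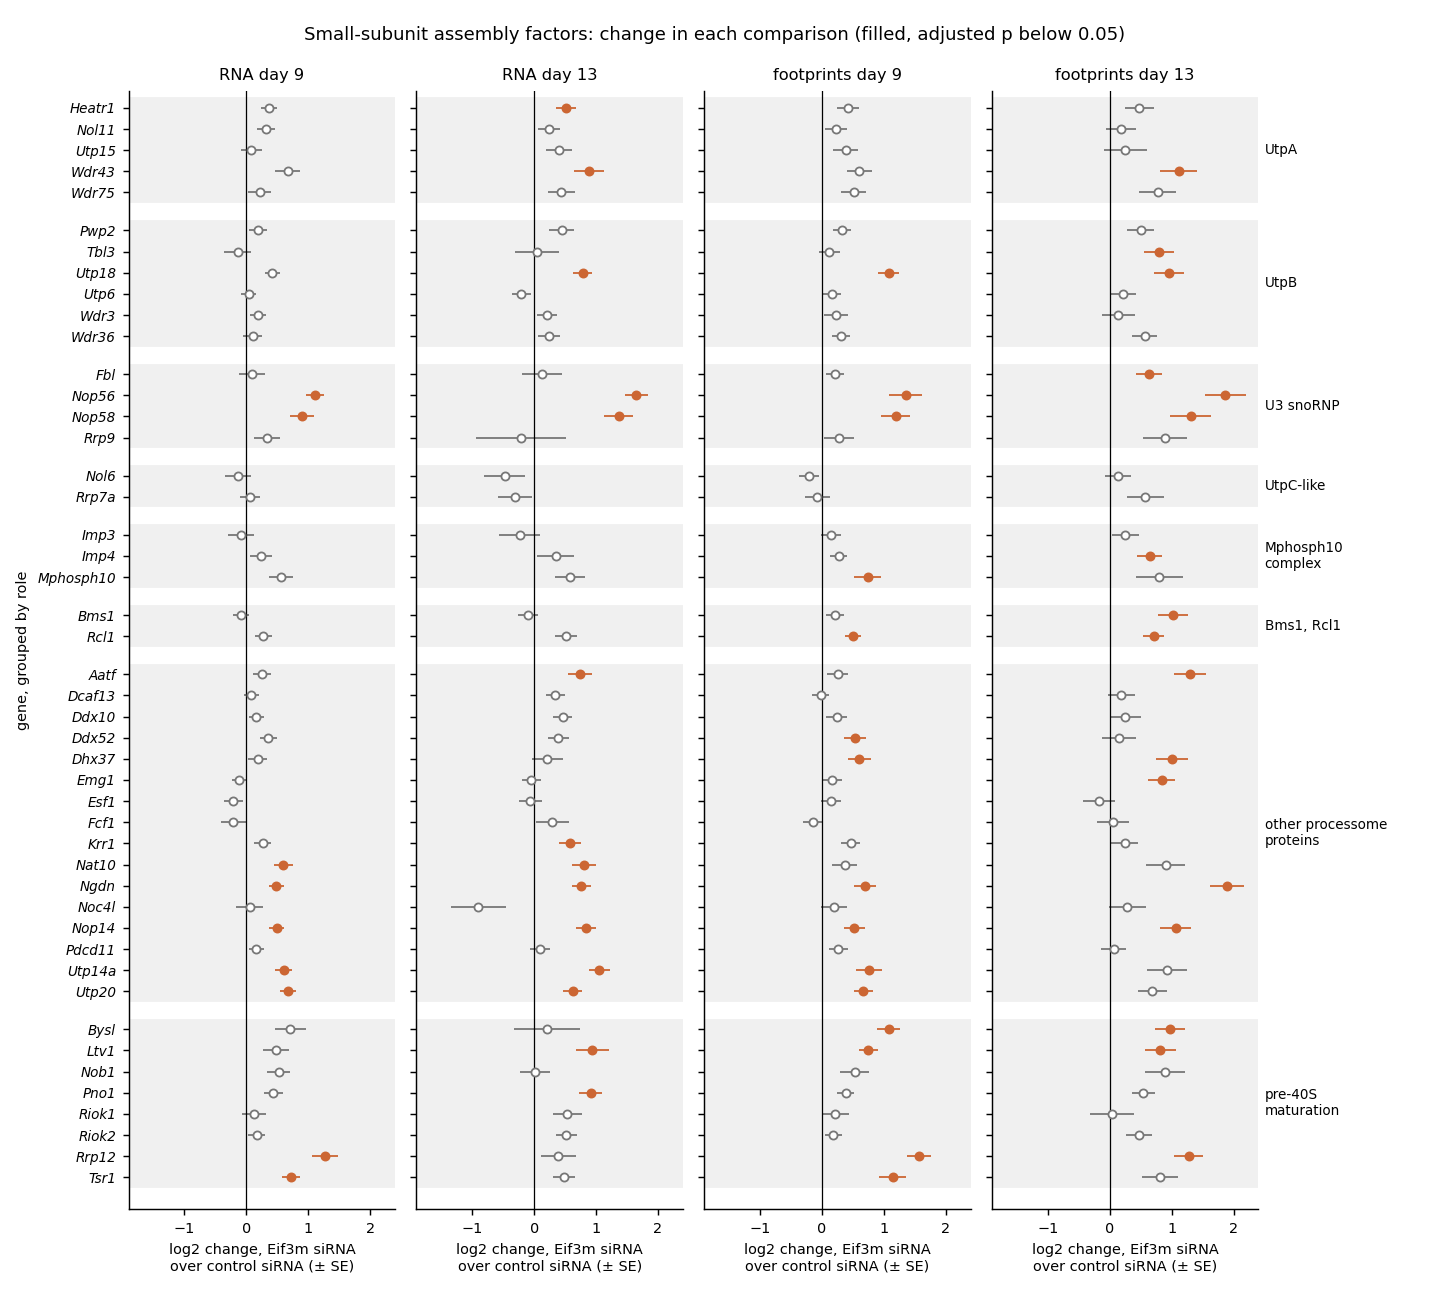
Log2 change of each of the 46 genes (x axis, Eif3m siRNA over control siRNA, bars are SE) in RNA and footprints at day 9 (3 mice a group) and day 13 (2 mice a group), grouped by role on the y axis. Filled points passed an adjusted p of 0.05: 9, 14, 15 and 17 genes, all to the right of 0, with Nop56, Nop58, Nop14 and Ngdn filled in all 4 panels.

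The livers were measured whole, so fewer cells of a type and less RNA per cell cannot be told apart. Hepatocyte markers, Alb and Ttr among them, were abundant in every library. The sum of 8 such markers in RNA was 150490 to 155630 CPM in control mice and 109332 to 121894 CPM in Eif3m-siRNA mice at day 9, and 267566 to 308241 CPM and 153679 to 214909 CPM at day 13. In footprints it was 174469 to 208507 CPM and 115892 to 138194 CPM at day 9, and 245380 to 247940 CPM and 126279 to 156467 CPM at day 13. In each of these sets the sum was lower in every Eif3m-siRNA mouse, and 1, 2, 3 and 3 of the 8 genes fell and none rose in day 9 RNA, day 13 RNA, day 9 footprints and day 13 footprints. The 8 did not move alike. In the same order 4, 3, 3 and 2 of them had a log2 change above 0, up to 0.89, 0.97, 0.90 and 0.92. Markers of other liver cells moved as well. The summed RNA of 10 Kupffer cell and macrophage markers was 326 to 390 CPM in day 9 control mice and 251 to 293 CPM in Eif3m-siRNA mice, with 4 genes that fell and 1 that rose, and at day 13 it was 315 to 339 CPM and 110 to 125 CPM, with 8 that fell. In footprints these sums were 473 to 566 and 486 to 546 CPM at day 9, and 477 to 526 and 261 to 313 CPM at day 13, with 2 rises and 3 falls at day 9 and 5 falls at day 13. Of 8 sinusoidal endothelial markers 1 rose in day 9 RNA and 5 fell in day 13 RNA, where their sum was 205 to 211 CPM in control mice and 144 to 150 CPM in Eif3m-siRNA mice. In footprints 1 endothelial marker rose at day 9 and none was called at day 13, where the sums overlapped (650 to 661 CPM in control mice and 614 to 685 CPM in Eif3m-siRNA mice). Of 8 stellate cell and fibroblast markers 1 rose in day 9 RNA, 3 rose in day 9 footprints, 5 fell in day 13 RNA and 3 fell in day 13 footprints. Cholangiocyte markers had 1 rise of 5 in day 13 RNA and 1 of 4 tested in day 13 footprints. The part of these cell types in the changes of the 46 genes was not tested.

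The 4 genes called higher in all 4 comparisons are 8.70% of the 46. Of the 11970 genes tested in both assays, 105 (0.877%) were called higher in all 4. A further 5 genes, Ltv1, Rrp12, Utp14a, Utp18 and Utp20, were called in 3, and 26 of the 46 in at least 1. The other 20 passed in none, among them Pwp2, Wdr3, Wdr36 and Utp6 of UtpB, both UtpC-like proteins and the kinases Riok1 and Riok2. The shares of all genes called in 3 or in at least 1 were not computed, so these counts have no scale. Called in either direction were 5.67% and 16.0% of all genes in RNA at day 9 and day 13, and 14.7% and 12.4% in footprints. The 2 days share no mice. RNA and footprints of a day come from the same livers.

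The counts depended on single libraries, and the share of all genes that rose also moved, though not always in the same direction. In day 9 RNA the count was 2 without Eif3m-siRNA mouse 2 and 3 without Eif3m-siRNA mouse 3 or any 1 of the 3 control mice of that day, when between 0.751% and 1.14% of all genes rose. It was 18 without either day 13 control mouse, when 6.38% and 6.44% of all genes rose (the days share 1 estimate of spread). In day 13 RNA 9 members rose without control mouse 1 or Eif3m-siRNA mouse 1, and 8 rose and Nol6 fell without Eif3m-siRNA mouse 2, when 7.03%, 3.32% and 3.798% of all genes rose. Without control mouse 2, 24 members and 7.88% of all genes rose, and Noc4l fell. In day 13 footprints the count was 3 without control mouse 1 or Eif3m-siRNA mouse 2 and 9 without control mouse 2, when 2.36%, 1.78% and 2.62% of all genes rose. The day 9 footprint count stayed between 10 (without Eif3m-siRNA mouse 2) and 18 (without Eif3m-siRNA mouse 1), with 5.36% and 8.35% of all genes.

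With library totals alone as the scale, 30 members rose in day 9 footprints and 31 in day 13 footprints, when 18.7% and 16.4% of all genes rose. That scale raised the median of all genes to 0.25 and 0.34 and the share of rises among all calls from 46.4% to 83.5% and from 49.4% to 85.0%. In RNA it raised that share from 43.7% to 70.8% at day 9 and from 38.2% to 59.7% at day 13, with 11 and 19 members that rose beside 5.36% and 9.15% of all genes.

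Among the role groups, the 4 proteins of the U3 small nucleolar ribonucleoprotein had the largest median log2 change in RNA at both days (0.61 and 0.75) and in footprints at both days (0.73 and 1.10). The 4 did not move alike in RNA, with log2 changes from 0.09 to 1.10 at day 9 and from -0.22 to 1.65 at day 13. Only Nop56 and Nop58 were called in RNA. Nop56 and Nop58 are the paired scaffold proteins of all box C/D particles. Nop56 RNA stood at 14.7, 12.6 and 14.4 CPM in control mice and 28.04, 34.7 and 26.9 CPM in Eif3m-siRNA mice at day 9, and at 12.8 and 16.1 CPM in control mice and 47.8 and 42.6 CPM in Eif3m-siRNA mice at day 13. Nop56 footprints stood at 9.01, 9.08 and 11.9 CPM in control mice and 29.03, 29.6 and 18.1 CPM in Eif3m-siRNA mice at day 9, and at 17.4 and 27.1 CPM in control mice and 56.01 and 102 CPM in Eif3m-siRNA mice at day 13. No Eif3m-siRNA library overlapped the control libraries in any of these 4 sets. The log2 change of Nop56 was 1.10 ± 0.15 (adjusted p = 0.00143) and 1.65 ± 0.19 (adjusted p = 0.000238) in RNA, and 1.35 ± 0.26 (adjusted p = 0.00355) and 1.87 ± 0.33 (adjusted p = 0.00251) in footprints. All 4 calls of Nop56 stood without any 1 library.

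Nop58 RNA stood at 18.5, 17.4 and 17.3 CPM in control mice and 29.5, 38.5 and 31.1 CPM in Eif3m-siRNA mice at day 9, and at 57.1 and 102 CPM in control mice and 189.97 and 220.3 CPM in Eif3m-siRNA mice at day 13. Nop58 footprints stood at 13.2, 13.5 and 12.2 CPM in control mice and 17.1, 39.4 and 31.5 CPM in Eif3m-siRNA mice at day 9, and at 15.1 and 20.7 CPM in control mice and 41.1 and 46.7 CPM in Eif3m-siRNA mice at day 13. The groups were again apart in each set, with Eif3m-siRNA mouse 1 the lowest of its group in day 9 footprints and day 13 control mouse 2 well above control mouse 1 in RNA. Log2 changes of Nop58 were 0.90 ± 0.19 (adjusted p = 0.0167) and 1.37 ± 0.23 (adjusted p = 0.002304) in RNA, and 1.19 ± 0.23 (adjusted p = 0.00254) and 1.30 ± 0.33 (adjusted p = 0.0154) in footprints. Its day 9 RNA call was lost without Eif3m-siRNA mouse 2 or 3 or any 1 control mouse of that day (adjusted p up to 0.0989), and its day 13 footprint call without Eif3m-siRNA mouse 2 or either control mouse (up to 0.159).

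The other U3 proteins did not pass in RNA. Fbl, fibrillarin, the methyltransferase of these particles, changed by 0.09 and 0.13 in RNA, neither past the test, and rose by 0.64 ± 0.21 (adjusted p = 0.0476) in day 13 footprints. The deposited Fbl count was not a whole number in 15 of 20 libraries, so reads may be divided with other loci. The same limit holds for Nop56, Nop58 and Ngdn, each with 10 of 20 such counts, and for Nop14 with 7. No member had whole numbers in every library. The footprint call of Fbl was lost with DESeq2 and with the replicate number as a block. It was also lost without any 1 of 6 libraries (the 3 day 9 control mice, both day 13 control mice and day 13 Eif3m-siRNA mouse 2). Rrp9, the U3-specific protein, passed in no comparison. Its day 13 RNA rested on 1 to 11 counts a library. Of the 4 U3 genes, Nop56 holds 5 annotated small nucleolar RNA genes and Nop58 holds 4, and reads of host and guest cannot be told apart in a table by gene symbol. Nop56 also overlaps the protein-coding gene Idh3b. Among other called members, such overlaps are annotated for Bysl (Ccnd3), Emg1 (Lpcat3), Krr1 (Glipr1), Nat10 (Caprin1) and Tsr1 (Srr).

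In the UtpA complex, the first to bind the leader, all 5 proteins were above 0 in all 4 comparisons. In day 9 RNA, day 13 RNA, day 9 footprints and day 13 footprints 0, 2, 0 and 1 of the 5 rose. Of all genes 2.48%, 6.09%, 6.84% and 6.12% did so. Wdr43 RNA stood at 18.4, 18.9 and 18.5 CPM in control mice and 26.9, 30.9 and 30.5 CPM in Eif3m-siRNA mice at day 9, and at 30.7 and 61.5 CPM in control mice and 87.9 and 82.7 CPM in Eif3m-siRNA mice at day 13. Wdr43 rose by 0.89 ± 0.24 (adjusted p = 0.0253) in RNA and by 1.11 ± 0.30 (adjusted p = 0.0193) in footprints at day 13, with the groups apart in each. At day 9 it changed by 0.66 ± 0.20 (adjusted p = 0.0678) in RNA and 0.61 ± 0.20 (adjusted p = 0.0527) in footprints. Heatr1, a long scaffold of HEAT repeats, rose in day 13 RNA alone, by 0.52 ± 0.16 (adjusted p = 0.0433). The Heatr1 call was lost with the day fitted alone, with no filter beyond 1 count and with the replicate number as a block. It was also lost without day 13 control mouse 1, either day 13 Eif3m-siRNA mouse or day 9 Eif3m-siRNA mouse 3. The Wdr43 calls were lost without Eif3m-siRNA mouse 2 (both assays), mouse 1 (RNA) or control mouse 1 (footprints). Wdr43 holds 3 annotated small nucleolar RNA genes, whose reads cannot be told apart from its own.

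Nol11, also of UtpA, passed in none. Nol11 RNA stood at 14.6, 15.6 and 17.3 CPM in control mice and 18.8, 19.9 and 20.7 CPM in Eif3m-siRNA mice at day 9, and its footprints at 23.6, 19.7 and 24.2 CPM in control mice and 21.3, 31.5 and 25.8 CPM in Eif3m-siRNA mice. The RNA groups were apart and the footprint groups overlapped, with changes of 0.32 ± 0.14 (adjusted p = 0.228) and 0.23 ± 0.17 (adjusted p = 0.408). At day 13 the log2 changes of Nol11 were 0.24 in RNA and 0.18 in footprints, and the groups overlapped in both.

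UtpB, which joins UtpA on the leader, had calls for Utp18 and Tbl3 alone. Utp18 RNA stood at 14.7, 15.96 and 14.6 CPM in control mice and 19.8, 20.8 and 19.7 CPM in Eif3m-siRNA mice at day 9, and at 29.2 and 33.9 CPM in control mice and 54.1 and 54.3 CPM in Eif3m-siRNA mice at day 13. Utp18 footprints stood at 8.26, 10.9 and 11.3 CPM in control mice and 20.1, 23.9 and 20.3 CPM in Eif3m-siRNA mice at day 9, and at 12.7 and 14.4 CPM in control mice and 25.7 and 26.9 CPM in Eif3m-siRNA mice at day 13. No library overlapped in any set. Utp18 rose by 1.08 ± 0.17 (adjusted p = 0.000198) in day 9 footprints, by 0.78 ± 0.15 (adjusted p = 0.00465) in day 13 RNA and by 0.96 ± 0.24 (adjusted p = 0.0126) in day 13 footprints, while its day 9 RNA change was 0.42 ± 0.12 (adjusted p = 0.0633). The day 13 footprint call was lost without Eif3m-siRNA mouse 2 or either control mouse (adjusted p up to 0.131).

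Tbl3, a protein of WD repeats, rose in day 13 footprints alone, by 0.79 ± 0.25 (adjusted p = 0.0388). Its call was lost with DESeq2 and with the replicate number as a block. Without any 1 of day 9 control mouse 2, the day 13 control mice or day 13 Eif3m-siRNA mouse 2 it was also lost (adjusted p up to 0.591). Pwp2, Wdr3, Wdr36 and Utp6 did not pass, with log2 changes between -0.21 (Utp6 in day 13 RNA) and 0.56 (Wdr36 in day 13 footprints).

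The UtpC-like proteins Nol6 and Rrp7a were the group with no call. Nol6 RNA stood at 23.5, 24.9 and 22.5 CPM in control mice and 21.8, 22.4 and 20.2 CPM in Eif3m-siRNA mice at day 9, and at 6.37 and 4.98 CPM in control mice and 2.59 and 6.76 CPM in Eif3m-siRNA mice at day 13. Nol6 footprints stood at 34.2, 33.01 and 29.2 CPM in control mice and 31.3, 29.4 and 23.04 CPM in Eif3m-siRNA mice at day 9, and at 39.4 and 43.6 CPM in control mice and 36.6 and 51.8 CPM in Eif3m-siRNA mice at day 13. In day 9 RNA every Eif3m-siRNA mouse was below every control mouse, and in the other 3 sets the groups overlapped. Log2 changes of Nol6 were -0.14 ± 0.21 (adjusted p = 0.778) and -0.48 ± 0.33 (adjusted p = 0.351) in RNA, and -0.21 ± 0.16 (adjusted p = 0.403) and 0.14 ± 0.21 (adjusted p = 0.748) in footprints. Without day 13 Eif3m-siRNA mouse 2, Nol6 RNA at day 13 passed the test as lower (-1.14, adjusted p = 0.0240). Rrp7a was at -0.31 in day 13 RNA and 0.58 in day 13 footprints, neither past the test.

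Mphosph10 forms a complex with Imp3 and Imp4 that helps U3 pair with the precursor. Mphosph10 rose by 0.74 ± 0.22 (adjusted p = 0.02999) in day 9 footprints, from 5.86, 5.78 and 7.76 CPM in control mice to 8.12, 11.6 and 12.3 CPM in Eif3m-siRNA mice. It lay apart in all 4 sets, with 0.58 ± 0.24 (adjusted p = 0.1198) in day 13 RNA. Imp4 rose by 0.64 ± 0.20 (adjusted p = 0.0381) in day 13 footprints, from 27.2 and 30.8 CPM to 41.7 and 48.02 CPM. Both calls were lost with DESeq2, and that of Imp4 also with the replicate number as a block. That of Mphosph10 was also lost without control mouse 1 or 2 or Eif3m-siRNA mouse 2 or 3 of day 9, and that of Imp4 without either control mouse or Eif3m-siRNA mouse 2 of day 13 or control mouse 2 of day 9.

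Imp3 did not pass in any comparison. Imp3 RNA stood at 16.7, 15.9 and 13.96 CPM in control mice and 14.8, 13.01 and 15.98 CPM in Eif3m-siRNA mice at day 9, and at 6.47 and 2.95 CPM in control mice and 4.35 and 3.38 CPM in Eif3m-siRNA mice at day 13. Imp3 footprints stood at 16.7, 23.7 and 22.7 CPM in control mice and 28.02, 19.7 and 22.7 CPM in Eif3m-siRNA mice at day 9, and at 37.1 and 36.7 CPM in control mice and 41.7 and 45.3 CPM in Eif3m-siRNA mice at day 13. The groups were apart only in day 13 footprints, where the change was 0.25 ± 0.22 (adjusted p = 0.5203). Of the 20 Imp3 counts 14 were not whole numbers, and they are uncertain for the same reason as those of Fbl.

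Bms1, a GTPase, and its partner Rcl1 enter late in processome assembly. Rcl1 RNA stood at 144, 141 and 112 CPM in control mice and 168, 138 and 174 CPM in Eif3m-siRNA mice at day 9, and at 49.9 and 44.3 CPM in control mice and 67.1 and 67.2 CPM in Eif3m-siRNA mice at day 13. Rcl1 footprints stood at 109, 108 and 86.5 CPM in control mice and 151, 131 and 148 CPM in Eif3m-siRNA mice at day 9, and at 70.7 and 75.5 CPM in control mice and 119 and 120.3 CPM in Eif3m-siRNA mice at day 13. The groups overlapped in day 9 RNA and were apart in the other 3 sets. Rcl1 rose by 0.50 ± 0.12 (adjusted p = 0.00959) and 0.71 ± 0.17 (adjusted p = 0.0070003) in footprints and changed by 0.27 ± 0.14 (adjusted p = 0.2897) and 0.51 ± 0.17 (adjusted p = 0.0633) in RNA. The day 9 call was lost without control mouse 3 (adjusted p = 0.0614), and the day 13 call without control mouse 1 or Eif3m-siRNA mouse 2 (up to 0.0788).

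Bms1 footprints at day 13 stood at 12.7 and 12.8 CPM in control mice and 22.3 and 28.1 CPM in Eif3m-siRNA mice, and its RNA at 42.4 and 54.1 CPM in control mice and 44.2 and 45.8 CPM in Eif3m-siRNA mice. It rose by 1.02 ± 0.24 (adjusted p = 0.00747) in these footprints and changed by -0.10 ± 0.16 (adjusted p = 0.711) in the RNA of the same livers. The call was lost without Eif3m-siRNA mouse 2 or either control mouse of day 13 (adjusted p up to 0.186).

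Ngdn, Aatf and Nop14 are proteins of the processome core. Ngdn and Aatf occur in 1 complex, and Nop14 binds Noc4l and Emg1. Ngdn RNA stood at 19.96, 20.6 and 19.7 CPM in control mice and 26.4, 29.99 and 27.7 CPM in Eif3m-siRNA mice at day 9, and at 19.7 and 17.7 CPM in control mice and 30.3 and 33.4 CPM in Eif3m-siRNA mice at day 13. Ngdn footprints stood at 13.5, 14.6 and 15.4 CPM in control mice and 17.3, 26.2 and 26.4 CPM in Eif3m-siRNA mice at day 9, and at 10.4 and 8.51 CPM in control mice and 38.9 and 32.7 CPM in Eif3m-siRNA mice at day 13. All 4 sets were apart, and the day 13 footprints showed the widest gap. Ngdn rose by 0.48 ± 0.12 (adjusted p = 0.0358) and 0.76 ± 0.16 (adjusted p = 0.00641) in RNA, and by 0.70 ± 0.17 (adjusted p = 0.00896) and 1.89 ± 0.28 (adjusted p = 0.0001299) in footprints. The day 9 RNA call was lost without any 1 of the 6 mice of that day (adjusted p up to 0.189). It was also lost with no filter beyond 1 count or with the replicate number as a block. The other 3 calls stood without any 1 library.

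Nop14 RNA stood at 23.3, 19.4 and 21.01 CPM in control mice and 28.7, 29.7 and 30.9 CPM in Eif3m-siRNA mice at day 9, and at 21.9 and 23.98 CPM in control mice and 42.97 and 38.7 CPM in Eif3m-siRNA mice at day 13. Nop14 footprints stood at 17.4, 14.99 and 12.2 CPM in control mice and 21.9, 23.2 and 19.04 CPM in Eif3m-siRNA mice at day 9, and at 11.01 and 17.5 CPM in control mice and 28.6 and 30.97 CPM in Eif3m-siRNA mice at day 13. All 4 sets were apart, by a narrow margin in day 9 footprints, where control mouse 1 was the nearest to the Eif3m-siRNA mice. Nop14 rose by 0.49 ± 0.12 (adjusted p = 0.0374) and 0.84 ± 0.16 (adjusted p = 0.00426) in RNA, and by 0.52 ± 0.17 (adjusted p = 0.0448) and 1.06 ± 0.26 (adjusted p = 0.00861) in footprints. Its day 9 RNA call was lost without any 1 mouse of that day (adjusted p up to 0.150). It was also lost with no filter beyond 1 count or with the replicate number as a block. Its day 9 footprint call was lost without control mouse 2 or 3, Eif3m-siRNA mouse 1 or 2 of that day or either Eif3m-siRNA mouse of day 13 (up to 0.182), and with DESeq2, with the day fitted alone or with no filter beyond 1 count. Its day 13 footprint call was lost without control mouse 1 or Eif3m-siRNA mouse 2 (up to 0.159).

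Aatf RNA stood at 18.98, 18.9 and 17.99 CPM in control mice and 21.2, 22.2 and 23.3 CPM in Eif3m-siRNA mice at day 9, and at 10.46 and 14.99 CPM in control mice and 20.5 and 22.2 CPM in Eif3m-siRNA mice at day 13. Aatf footprints stood at 17.3, 16.4 and 13.7 CPM in control mice and 16.9, 21.5 and 17.97 CPM in Eif3m-siRNA mice at day 9, and at 9.27 and 14.4 CPM in control mice and 28.003 and 29.9 CPM in Eif3m-siRNA mice at day 13. The groups overlapped only in day 9 footprints. Aatf rose at day 13, by 0.74 ± 0.19 (adjusted p = 0.0197) in RNA and 1.29 ± 0.26 (adjusted p = 0.00209) in footprints, and at day 9 changed by 0.25 ± 0.15 (adjusted p = 0.355) and 0.25 ± 0.17 (adjusted p = 0.328). In RNA the day 13 call was lost without control mouse 1 or either Eif3m-siRNA mouse or with the day fitted alone, and the footprint call without control mouse 1 (adjusted p = 0.0593).

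Noc4l and Emg1, the partners of Nop14, did not pass in RNA. Noc4l changed by -0.90 ± 0.44 (adjusted p = 0.187) in day 13 RNA, which rested on 8.5 to 49.5 counts a library, and passed as lower without control mouse 2 (-1.38, adjusted p = 0.0166). Emg1, a methyltransferase of the small-subunit RNA, rose by 0.84 ± 0.22 (adjusted p = 0.0164) in day 13 footprints and changed by -0.05 ± 0.15 (adjusted p = 0.882) in the RNA of those livers. That rise was lost without Eif3m-siRNA mouse 2 or either control mouse of day 13 (adjusted p up to 0.218).

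Utp14a stimulates Dhx37, the helicase that removes U3 from the precursor. Utp14a RNA stood at 19.1, 17.7 and 16.5 CPM in control mice and 23.8, 28.8 and 28.1 CPM in Eif3m-siRNA mice at day 9, and at 26.1 and 30.9 CPM in control mice and 57.4 and 61.1 CPM in Eif3m-siRNA mice at day 13. Utp14a footprints stood at 6.01, 7.702 and 7.16 CPM in control mice and 10.8, 15.2 and 9.21 CPM in Eif3m-siRNA mice at day 9, and at 8.11 and 7.97 CPM in control mice and 14.9 and 15.6 CPM in Eif3m-siRNA mice at day 13. The groups were apart in all 4. Utp14a rose by 0.60 ± 0.13 (adjusted p = 0.0196) and 1.05 ± 0.16 (adjusted p = 0.00139) in RNA and by 0.76 ± 0.21 (adjusted p = 0.0171) in day 9 footprints, and its day 13 footprint change was 0.93 ± 0.32 (adjusted p = 0.0652). The day 9 calls were lost without Eif3m-siRNA mouse 2 or control mouse 1 (both assays) and, in RNA, without Eif3m-siRNA mouse 3 or control mouse 2 or 3 (adjusted p up to 0.118 in RNA and 0.128 in footprints), and the footprint call also with DESeq2. Utp14a had 12 of 20 counts that were not whole numbers.

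Dhx37 rose in footprints at both days, by 0.60 ± 0.18 (adjusted p = 0.0309) and 1.00 ± 0.26 (adjusted p = 0.0129). Its RNA changed by 0.18 ± 0.16 (adjusted p = 0.569) and 0.21 ± 0.26 (adjusted p = 0.615). The day 9 footprint call was lost with DESeq2, with the day fitted alone and without Eif3m-siRNA mouse 2 or any 1 control mouse (adjusted p up to 0.144), and the day 13 call without Eif3m-siRNA mouse 2 or either control mouse (up to 0.1304).

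Utp20, a large HEAT-repeat scaffold, had RNA at 20.98, 21.1 and 22.4 CPM in control mice and 32.9, 37.5 and 31.9 CPM in Eif3m-siRNA mice at day 9, and at 55.4 and 66.4 CPM in control mice and 101 and 85.7 CPM in Eif3m-siRNA mice at day 13. Utp20 footprints stood at 17.9, 19.7 and 17.2 CPM in control mice and 24.97, 33.3 and 28.4 CPM in Eif3m-siRNA mice at day 9, and at 17.96 and 18.1 CPM in control mice and 23.4 and 32.3 CPM in Eif3m-siRNA mice at day 13. All groups were apart, and the log2 changes lay close together. They were 0.67 ± 0.13 (adjusted p = 0.01099) and 0.62 ± 0.16 (adjusted p = 0.0188) in RNA, and 0.67 ± 0.16 (adjusted p = 0.00611) and 0.69 ± 0.23 (adjusted p = 0.0617) in footprints. The day 9 RNA call was lost without Eif3m-siRNA mouse 2 (adjusted p = 0.0639), and the day 13 RNA call without control mouse 1 or Eif3m-siRNA mouse 1 or with the day fitted alone (up to 0.109).

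Nat10, which acetylates cytidines of the small-subunit RNA, rose in RNA by 0.59 ± 0.15 (adjusted p = 0.0418) and 0.81 ± 0.20 (adjusted p = 0.0157). In footprints it changed by 0.37 ± 0.20 (adjusted p = 0.233) and 0.90 ± 0.32 (adjusted p = 0.0692). With the replicate number as a block, the day 9 RNA call of Nat10 did not stand. Its day 9 call was lost with DESeq2 size factors and without any 1 mouse of that day (adjusted p up to 0.2001), and its day 13 call without Eif3m-siRNA mouse 2 (0.105). Krr1, a KH-domain protein, rose in day 13 RNA by 0.58 ± 0.18 (adjusted p = 0.0422) and the helicase Ddx52 in day 9 footprints by 0.53 ± 0.17 (adjusted p = 0.0436). The Krr1 call was lost without 4 libraries taken singly (day 13 control mouse 1, either day 13 Eif3m-siRNA mouse, day 9 Eif3m-siRNA mouse 3). It was also lost with the day fitted alone, with no filter beyond 1 count and with the replicate number as a block. The Ddx52 call was lost with DESeq2, with the day fitted alone, with no filter beyond 1 count and with the replicate number as a block. It was also lost without any 1 library other than Eif3m-siRNA mouse 1 or 3 of day 9. Dcaf13, Ddx10, Esf1, Fcf1 and Pdcd11 passed in none.

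The 8 proteins of pre-40S maturation were above 0 in all 4 comparisons. In day 9 RNA, day 13 RNA, day 9 footprints and day 13 footprints 2, 2, 4 and 3 of the 8 rose (25%, 25%, 50% and 37.5%). Of all genes 2.48%, 6.09%, 6.84% and 6.12% did so. Rrp12, needed for export of the pre-40S, had the largest log2 change of the 46 genes in day 9 RNA and in day 9 footprints. Rrp12 RNA stood at 7.22, 6.23 and 6.84 CPM in control mice and 15.8, 17.98 and 15.1 CPM in Eif3m-siRNA mice at day 9, and at 6.85 and 4.35 CPM in control mice and 5.701 and 9.77 CPM in Eif3m-siRNA mice at day 13. Rrp12 footprints stood at 9.16, 6.74 and 6.57 CPM in control mice and 23.3, 24.9 and 18.3 CPM in Eif3m-siRNA mice at day 9, and at 22.01 and 18.1 CPM in control mice and 41.1 and 53.5 CPM in Eif3m-siRNA mice at day 13. Only the day 13 RNA groups overlapped. Rrp12 rose by 1.27 ± 0.21 (adjusted p = 0.00417) in day 9 RNA, 1.57 ± 0.19 (adjusted p = 1.47e-05) in day 9 footprints and 1.27 ± 0.24 (adjusted p = 0.00131) in day 13 footprints, and changed by 0.39 ± 0.29 (adjusted p = 0.385) in day 13 RNA. Both day 9 calls stood without any 1 library, and the day 13 call was lost without Eif3m-siRNA mouse 2 (adjusted p = 0.0635).

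Bysl and Ltv1 sit on the maturing head of the subunit. Bysl RNA stood at 10.2, 8.88 and 11.3 CPM in control mice and 16.3, 18.02 and 15.4 CPM in Eif3m-siRNA mice at day 9, and at 1.62 and 0.532 CPM in control mice and 0.823 and 2.25 CPM in Eif3m-siRNA mice at day 13. Bysl footprints stood at 8.26, 11.3 and 8.804 CPM in control mice and 19.5, 22.5 and 17.97 CPM in Eif3m-siRNA mice at day 9, and at 19.7 and 23.4 CPM in control mice and 32.004 and 49.8 CPM in Eif3m-siRNA mice at day 13. The groups overlapped in day 13 RNA, where 11 to 34 counts a library were seen, and were apart in the other 3. Bysl rose by 1.08 ± 0.19 (adjusted p = 0.000613) and 0.98 ± 0.24 (adjusted p = 0.0106) in footprints and changed by 0.71 ± 0.25 (adjusted p = 0.119) and 0.21 ± 0.53 (adjusted p = 0.832) in RNA. Its day 13 footprint call was lost without Eif3m-siRNA mouse 2 or either control mouse (adjusted p up to 0.363).

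Ltv1 RNA stood at 15.6, 14.4 and 15.6 CPM in control mice and 20.7, 22.8 and 19.9 CPM in Eif3m-siRNA mice at day 9, and at 14.3 and 27.9 CPM in control mice and 33.1 and 48.8 CPM in Eif3m-siRNA mice at day 13. Ltv1 footprints stood at 15.8, 15.7 and 13.4 CPM in control mice and 20.7, 28.1 and 26.4 CPM in Eif3m-siRNA mice at day 9, and at 11.6 and 15.4 CPM in control mice and 22.9 and 24.6 CPM in Eif3m-siRNA mice at day 13. All 4 sets were apart, although the day 13 RNA groups were spread widely. Ltv1 rose by 0.94 ± 0.27 (adjusted p = 0.0312) in day 13 RNA, and by 0.75 ± 0.16 (adjusted p = 0.00312) and 0.82 ± 0.25 (adjusted p = 0.0364) in footprints, and changed by 0.47 ± 0.21 (adjusted p = 0.228) in day 9 RNA. With the replicate number as a block, its day 13 footprint call did not stand. The day 13 calls were lost without control mouse 1 or Eif3m-siRNA mouse 2 (both assays) and without control mouse 2 or Eif3m-siRNA mouse 1 (footprints), with an adjusted p of up to 0.206 in RNA and 0.285 in footprints, and the footprint call also with DESeq2.

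Tsr1, a GTPase-like protein that covers a binding site of initiation factors on the pre-40S, rose at day 9. Tsr1 RNA stood at 11.49, 11.6 and 12.8 CPM in control mice and 17.2, 21.2 and 20.6 CPM in Eif3m-siRNA mice at day 9, and at 38.3 and 52.6 CPM in control mice and 63.5 and 63.3 CPM in Eif3m-siRNA mice at day 13. Tsr1 footprints stood at 10.8, 9.35 and 8.36 CPM in control mice and 15.6, 23.6 and 23.3 CPM in Eif3m-siRNA mice at day 9, and at 12.2 and 26.6 CPM in control mice and 30.3 and 36.8 CPM in Eif3m-siRNA mice at day 13. Every set was apart, with day 13 control mouse 2 well above control mouse 1 in footprints. Tsr1 rose by 0.72 ± 0.15 (adjusted p = 0.0144) in RNA and 1.14 ± 0.22 (adjusted p = 0.00133) in footprints at day 9, and changed by 0.48 ± 0.18 (adjusted p = 0.0862) and 0.81 ± 0.29 (adjusted p = 0.0784) at day 13. The RNA call was lost without Eif3m-siRNA mouse 2 or 3 or any 1 control mouse of day 9 (adjusted p up to 0.0870). Tsr1 holds the small nucleolar RNA Snord91a and overlaps Srr.

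Pno1, the partner of the endonuclease Nob1, rose in day 13 RNA alone. Pno1 RNA stood at 21.9, 26.2 and 27.2 CPM in control mice and 33.96, 34.5 and 33.5 CPM in Eif3m-siRNA mice at day 9, and at 113 and 162 CPM in control mice and 228 and 287 CPM in Eif3m-siRNA mice at day 13. Pno1 footprints stood at 33.03, 33.97 and 32.7 CPM in control mice and 37.97, 48.4 and 43.3 CPM in Eif3m-siRNA mice at day 9, and at 31.9 and 42.5 CPM in control mice and 54.9 and 54.02 CPM in Eif3m-siRNA mice at day 13. The groups were apart in all 4. Pno1 rose by 0.91 ± 0.19 (adjusted p = 0.007299) in day 13 RNA, lost without Eif3m-siRNA mouse 2 (adjusted p = 0.0593), and changed by 0.44 ± 0.16 (adjusted p = 0.125) in day 9 RNA, 0.38 ± 0.14 (adjusted p = 0.0672) in day 9 footprints and 0.54 ± 0.19 (adjusted p = 0.0684) in day 13 footprints. Nob1 itself, Riok1 and Riok2 passed in none, with log2 changes between 0.01 (Nob1 in day 13 RNA) and 0.89 (Nob1 in day 13 footprints).

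**Figure D2:**
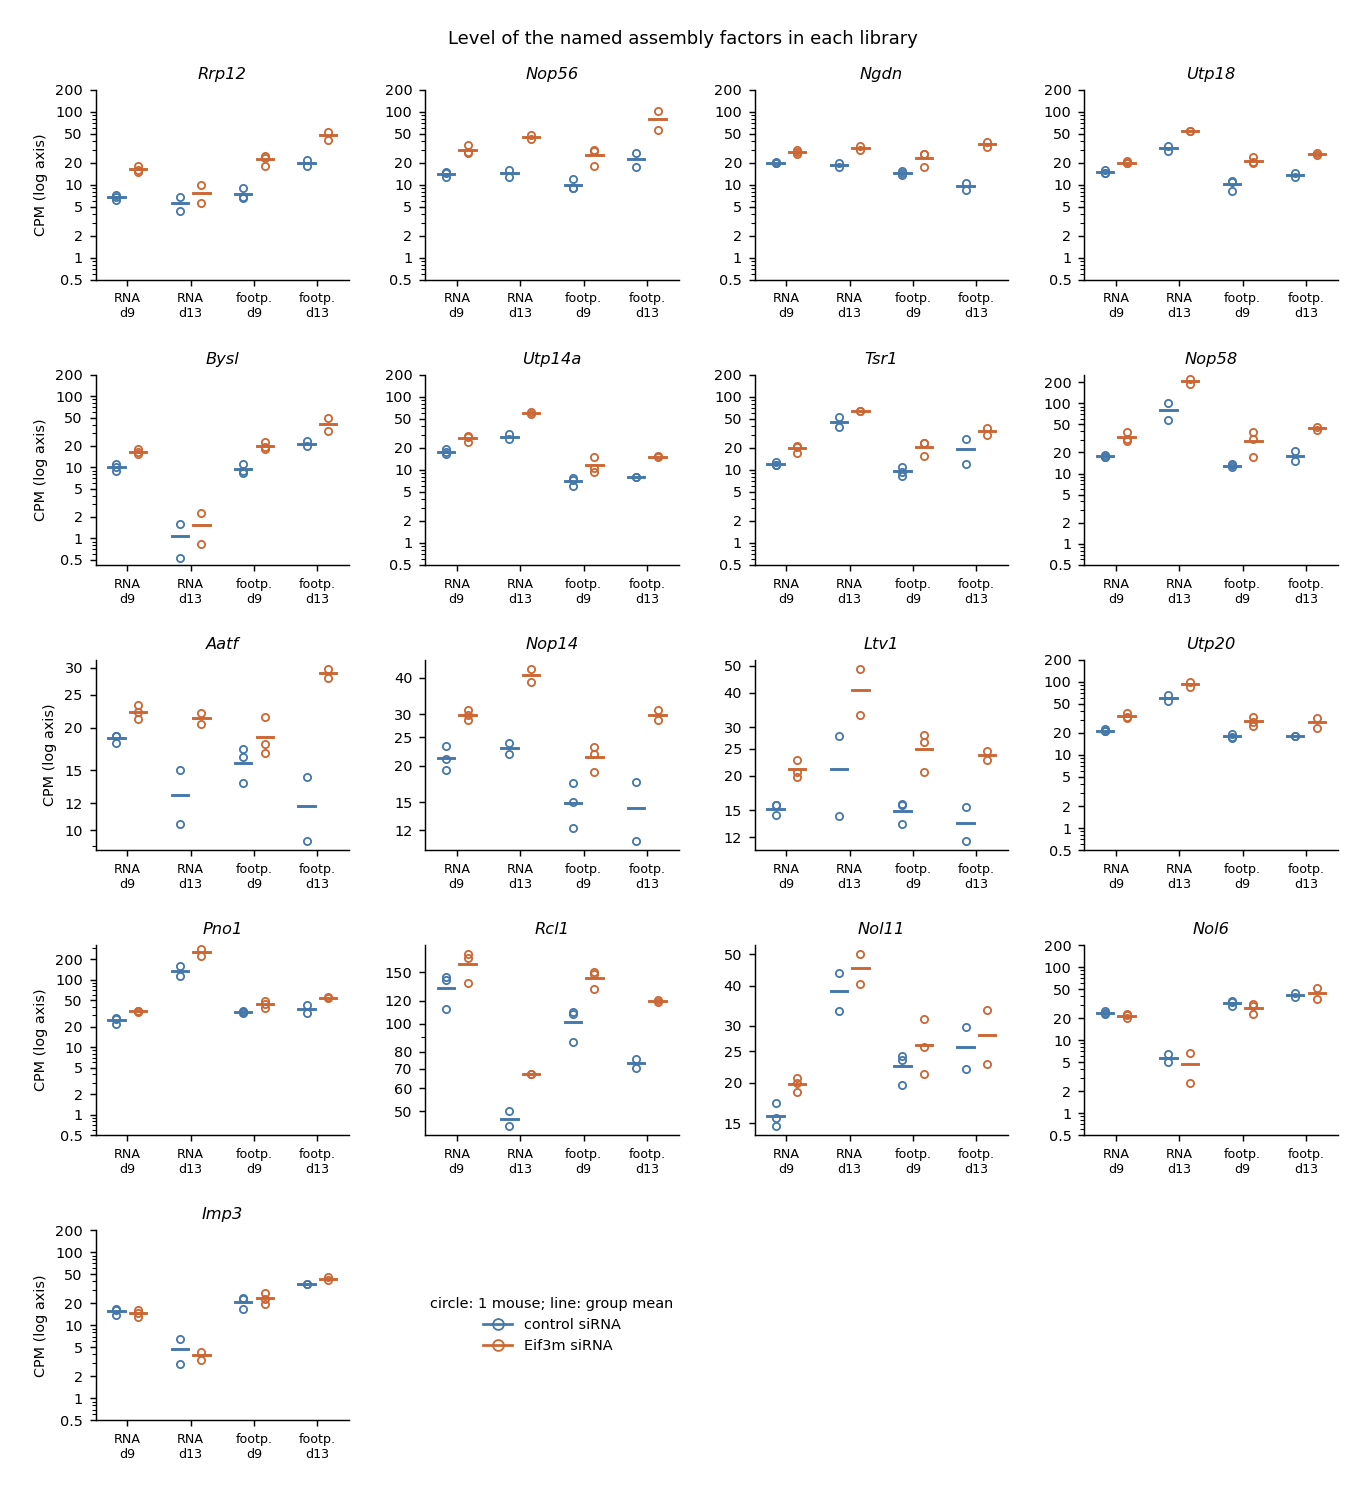
CPM (log axis) of 17 assembly factors in every library, with control siRNA and Eif3m siRNA side by side for RNA and footprints at each day. Circles are mice and lines are group means. Nop56 and Nop58 separate by siRNA in every set, while Nol6 and Imp3 overlap in 3 of the 4 sets, and the day 13 RNA of Bysl lies between 0.532 and 2.25 CPM, below its day 9 RNA.

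Levels in control mice differed between the days in RNA more than in footprints. The RNA libraries of the 2 days were made with different kits (KAPA mRNA capture at day 9, NeoPrep at day 13), so day and kit cannot be told apart in RNA, whereas footprints used ART-seq on both days. On a log2 scale with 0.5 CPM added, day 13 over day 9 ran from -3.77 (Rrp9) to 2.43 (Pno1) in control RNA, with a median of 0.47. In control footprints it ran from -0.93 to 1.36, and 43 of the 46 genes lay within 2-fold. In RNA 21 lay within 2-fold, and 6 of the 46 (13.0%) were at least 4-fold lower at day 13, as were 13.2% of all genes tested.

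The 11 genes whose control RNA was at least 2-fold lower at day 13 were Tbl3, Fbl, Rrp9, Nol6, Rrp7a, Imp3, Imp4, Rcl1, Noc4l, Dhx37 and Bysl. None of these 11 rose in day 13 RNA, and 6 of them rose in day 13 footprints. Of the other 35 genes, 14 rose in day 13 RNA and 11 in day 13 footprints. Median log2 changes at day 13 were 0.04 in RNA and 0.64 in footprints for the 11, and 0.48 and 0.69 for the 35. In day 9 RNA, too, none of the 11 rose (median 0.09), while 9 of the other 35 did (median 0.32), beside 2.48% of all genes. In day 9 footprints 3 of the 11 and 12 of the 35 rose, beside 6.84% of all genes. Among all genes tested in both assays, 4.32% of the 4093 with control RNA at least 2-fold lower at day 13 rose in RNA and 8.75% in footprints. Of the other 7877 genes 8.33% rose in RNA and 4.82% in footprints. This grouping was made after the values were seen, it uses the same day 13 control libraries as the day 13 RNA change, and the differences were not tested.

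**Figure D3:**
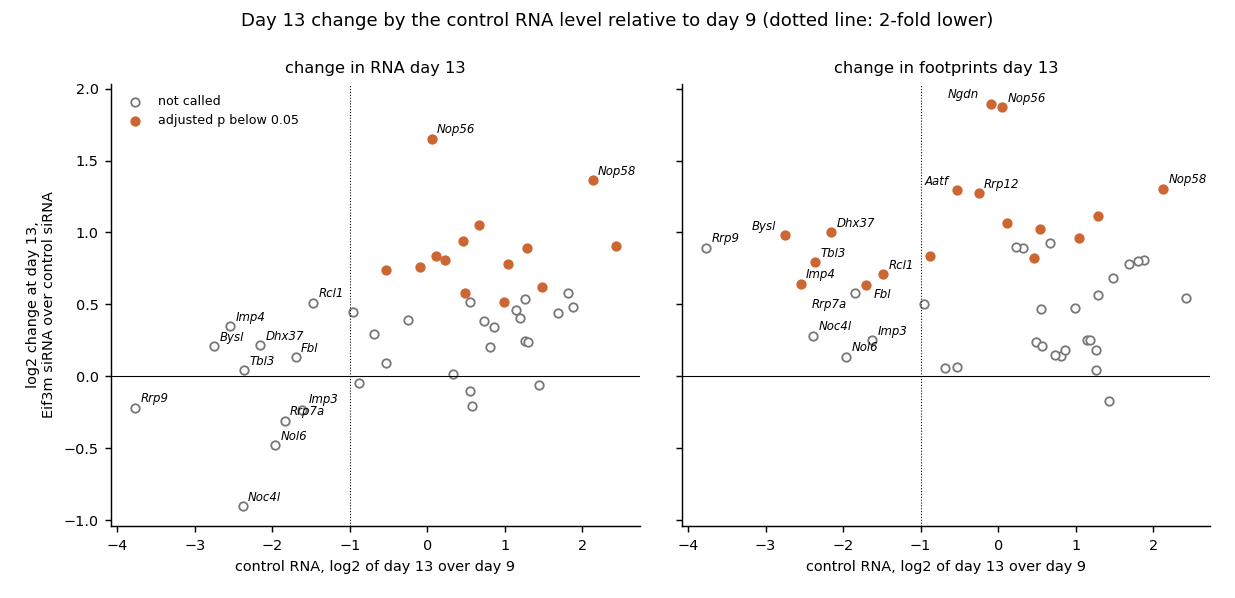
Log2 change at day 13 (y axis, Eif3m siRNA over control siRNA) in RNA (left) and footprints (right) against the log2 ratio of day 13 to day 9 control RNA (x axis), 1 point per gene, filled where the adjusted p was below 0.05. Left of the dotted line, at 2-fold lower control RNA, no point of 11 is filled for RNA and 6 are for footprints.

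Translational efficiency, the footprint change minus the RNA change, was tested in 1 model over the 20 libraries. None of the 46 genes passed in edgeR at day 9 or day 13, where 0% and 0.0211% of the 14236 genes tested passed, and none passed in DESeq2. At an unadjusted p below 0.05 there were 1 member at day 9 and 3 at day 13 (2.17% and 6.52%), beside 4.86% and 10.003% of all genes. The smallest p at day 9 was that of Utp18, with footprints per RNA of 0.684 ± 0.104 in control mice and 1.06 ± 0.0726 in Eif3m-siRNA mice (SD, n = 3) and a log2 change of 0.65 ± 0.20 (adjusted p = 0.7004). At day 13 it was Bms1 (0.276 ± 0.0469 in control mice against 0.564 ± 0.0760, SD, n = 2), with 1.04 ± 0.29 (adjusted p = 0.217). Ngdn at day 13 had 1.05 ± 0.32 (adjusted p = 0.248) and Emg1 0.80 ± 0.26 (adjusted p = 0.272). The median efficiency change of the 46 was 0.13 at day 9 and 0.14 at day 13, beside 0.03 and 0.13 for all genes.

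The difference between the day 13 and day 9 effects was called for none of the 46 in RNA (1.23% of all genes), footprints (0.819%) or efficiency (0%) in edgeR, and for none in DESeq2. At an unadjusted p below 0.05, 3, 5 and 2 members passed (6.52%, 10.9% and 4.35%), beside 17.8%, 12.2% and 5.37% of all genes. The footprint and efficiency shares lie near those of all genes. In footprints the smallest p was that of Ngdn, whose rise was larger at day 13 by 1.199 ± 0.332 (adjusted p = 0.109), followed by Aatf (1.04 ± 0.31, adjusted p = 0.137). In RNA it was Rrp12, with a day 13 effect lower by 0.88, that is -0.88 ± 0.35 (adjusted p = 0.215). Calls present on one day and absent on the other are therefore not shown to differ between days. The absence of calls in the RNA difference did not hold without day 13 control mouse 2, a fit that left 1 control mouse at day 13. In that fit the median RNA difference of the 46 was 0.23, beside -0.17 for all genes.

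Other genes of ribosome production were read from lists by the same fits. Of 54 large-subunit assembly factors 11 rose in day 9 RNA, 19 in day 13 RNA, 21 in day 9 footprints and 19 in day 13 footprints, and none fell. Of 33 small-subunit ribosomal proteins 14, 27, 28 and 29 rose in the same order. Npm1, a histone chaperone of the nucleolus, rose by 0.63 ± 0.14 (adjusted p = 0.0201) and 1.64 ± 0.17 (adjusted p = 0.0001599) in RNA, while its footprint changes of 0.86 ± 0.33 (adjusted p = 0.0836) and 0.64 ± 0.50 (adjusted p = 0.469) did not pass. Npm1 footprints were few, with 13.3 to 16.7 counts a library in day 9 control mice and 4.33 to 8.17 in day 13 control mice. Pa2g4, a factor bound to late large subunits, rose by 0.64 ± 0.12 (adjusted p = 0.00758) and 1.09 ± 0.14 (adjusted p = 0.000472) in RNA and by 0.84 ± 0.13 (adjusted p = 0.000263) and 0.95 ± 0.17 (adjusted p = 0.00109) in footprints. Ddx56, a helicase of large-subunit assembly, rose by 1.00 ± 0.15 (adjusted p = 0.000126) in day 9 footprints. Rps6, a small-subunit protein and kinase target, rose by 0.57 ± 0.11 (adjusted p = 0.0134) and 1.72 ± 0.14 (adjusted p = 3.81e-05) in RNA and by 1.11 ± 0.18 (adjusted p = 0.000248) and 1.43 ± 0.23 (adjusted p = 0.0003496) in footprints. Ribosomal proteins have many near-identical pseudogenes, so their counts are uncertain.

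A second list of 31 small-subunit processome and pre-40S factors, none of them among the 46, had 1, 4, 2 and 6 genes that rose (3.23%, 12.9%, 6.45% and 19.4%) and none that fell. The first and the third of these shares lie near the 2.48% and 6.84% of all genes. Its medians were 0.07, 0.33, 0.18 and 0.39, below the 0.24, 0.40, 0.34 and 0.67 of the 46. Ncl, nucleolin, an abundant nucleolar RNA-binding protein, gave the single day 9 RNA call of that list, with a rise of 0.50 ± 0.13 (adjusted p = 0.0391), and also rose by 1.17 ± 0.16 (adjusted p = 0.000585) in day 13 RNA. Ddx49 rose by 0.98 ± 0.21 (adjusted p = 0.003695) in day 13 footprints, and Cirh1a, a UtpA protein listed under its older symbol, by 0.59 ± 0.15 (adjusted p = 0.0111) and 0.94 ± 0.21 (adjusted p = 0.00467) in footprints.

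RNA polymerase I genes and Myc, which drive the precursor RNA, had 1, 2, 1 and 1 calls of 16, all rises. These are 6.25%, 12.5%, 6.25% and 6.25%, and the 2 footprint shares lie near the 6.84% and 6.12% of all genes. Polr1a rose by 0.60 ± 0.13 (adjusted p = 0.0189) in day 9 RNA, Taf1b, a subunit of the polymerase I initiation factor SL1, by 0.96 ± 0.22 (adjusted p = 0.0125) in day 13 RNA, and Polr1e by 1.68 ± 0.39 (adjusted p = 0.00703) in day 13 footprints. The Polr1e rise rested on 6 and 9 footprint counts in the day 13 control mice. Myc RNA at day 9 stood at 1.96, 1.98 and 4.87 CPM in control mice and 20.6, 5.14 and 5.12 CPM in Eif3m-siRNA mice, and at day 13 at 1.81 and 1.26 CPM in control mice and 1.998 and 4.13 CPM in Eif3m-siRNA mice. Its high day 9 mean came from Eif3m-siRNA mouse 1, and its changes of 1.81 ± 0.58 (adjusted p = 0.104) and 0.83 ± 0.94 (adjusted p = 0.592) did not pass. The 14 genes of box C/D assembly and of the box H/ACA particles, which guide pseudouridine, had 1, 3, 0 and 3 rises (7.14%, 21.4%, 0% and 21.4%) and 1 fall, in day 9 footprints. Gar1 rose by 0.81 ± 0.20 (adjusted p = 0.0321) in day 9 RNA, 1.07 ± 0.25 (adjusted p = 0.0121) in day 13 RNA and 1.28 ± 0.29 (adjusted p = 0.00539) in day 13 footprints, and Nhp2 by 1.87 ± 0.26 (adjusted p = 9.65e-05) in day 13 footprints. Znhit6, a factor of box C/D assembly, rose by 0.71 ± 0.21 (adjusted p = 0.0337) in day 13 RNA and 0.90 ± 0.26 (adjusted p = 0.0245) in day 13 footprints.

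**Figure D4:**
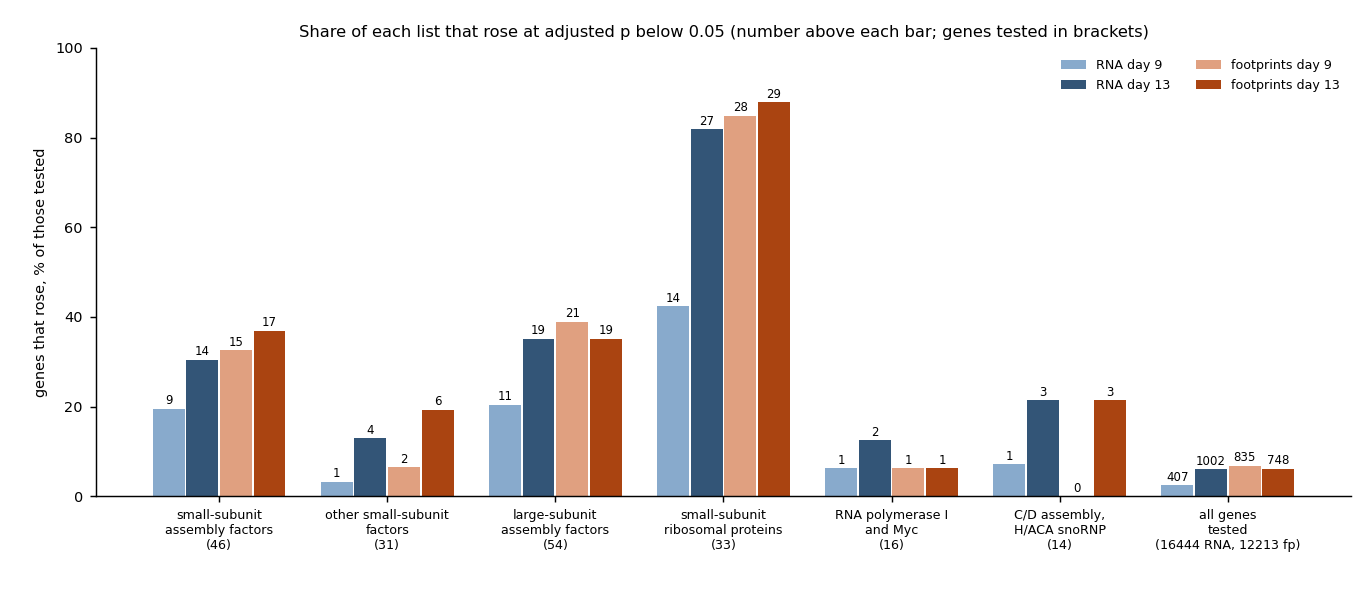
Percent of tested genes that rose (y axis) in each of 6 gene lists and over all genes tested, for the 4 within-day comparisons, with the number of genes above each bar. The 46 assembly factors lie between 19.6% and 37.0%, the large-subunit assembly factors between 20.4% and 38.9%, and all genes between 2.48% and 6.84%.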

How the data were processed

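RNA and ribosome footprints were counted per gene symbol in 20 libraries from 10 livers. The deposited table holds the authors' expected counts, which need not be whole numbers: 44.3% of the nonzero values differed from a whole number by more than 0.01. The submitters' processing notes name cutadapt, Bowtie and Bowtie2. For their versions, the alignment's genome build and the counting rule with its use of strand, the entry is: not given in the sources used here. Per the labels' protocols, RNA libraries were made with KAPA mRNA capture at day 9 and NeoPrep at day 13, and footprints with ART-seq on both days.

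Values were rounded to whole numbers and tested with edgeR 4.0.16 (R 4.3.3), using its robust quasi-likelihood fit, filterByExpr and TMM within each assay, with the 4 groups of an assay in 1 fit. For efficiency, the RNA change was subtracted from that of the footprints in 1 fit over the 8 groups. Benjamini-Hochberg adjustment ran over all genes tested, a call is an adjusted p below 0.05 and tests are two-sided. With 3 mice against 3, an exact permutation test could not give a p below 0.1, so single values were not tested that way. DESeq2 1.42.0 and its size factors, library totals, other filters, each day fitted alone, the replicate number as a block and leaving out each library were tried as alternatives. The fits were also run on simulated counts with the same spread for every gene and the same mean on both days of an assay. Such counts lack the differences between days of these libraries, so no conclusion on accuracy is drawn from them. Scripts ran in Python 3.11.15 with pandas 2.3.3 and matplotlib 3.10.9.

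The members and lists were chosen with earlier results of these data known. Members given in full were the 14 called members with the smallest p in any within-day comparison and, for each role group without one, the member with the highest control footprint level (Nol11, Nol6 and Imp3). From each other list up to 3 called genes with the smallest p were named, with Eif3m and Myc. All members could be named, and the others appear with fewer values. Labels give animals separate numbers within a group but not whether cages or days were shared, so p-values measure the spread between these mice. The labels tie RNA and footprints to the same animal, and the deviations of these 2 libraries correlated across genes with r from 0.0693 to 0.292. Control and Eif3m-siRNA mice that share a number are different animals. The lymphocyte and neutrophil marker list is not reported here.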

Additional observations from a re-analysis of the deposited data

How the results depend on the processing

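No reported result was reversed under the alternatives run. Noc4l and Nol6, uncalled in the reported fit, passed as lower in day 13 RNA when 1 library was left out. Fitting day 9 RNA alone gave 21 called members in place of 9. In that fit 23.2% of all genes were called in either direction, against 5.67% in the reported fit. Rises made up 45.3% of those calls, against 43.7% in the reported fit. The larger member count therefore came with more calls over all genes. The call count without 1 library ranged from 2 to 18 in day 9 RNA, from 9 to 25 in day 13 RNA, from 10 to 18 in day 9 footprints and from 3 to 22 in day 13 footprints. For the RNA day difference, members were called only without day 13 control mouse 2, a fit that left 1 control mouse at day 13. The 22 in day 13 footprints came without day 9 Eif3m-siRNA mouse 1, when 7.63% of all genes rose. Library totals gave 30 members in day 9 footprints and 31 in day 13 footprints, beside 18.7% and 16.4% of all genes. No filter beyond 1 count gave 1 member for the footprint day difference, beside 1.03% of all genes. DESeq2 called 11 and 20 members in RNA and 10 and 13 in footprints, when 4.42%, 9.28%, 4.58% and 4.74% of all genes rose.

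Over all genes, calls in day 9 RNA were 932 in the reported fit, 1642 with DESeq2 and 3445 with the day alone. In day 13 RNA they were 2625 and 968 with the day alone. Library totals raised footprint calls from 1800 to 2742 at day 9 and from 1515 to 2355 at day 13. For day 13 RNA, DESeq2 size factors moved the share of rises among calls from 38.2% to 49.1%.

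With the replicate number as a block, 7, 13, 14 and 13 members were called in day 9 RNA, day 13 RNA, day 9 footprints and day 13 footprints, and 0 for either day difference. Of all genes 1.68%, 5.07%, 5.99% and 4.94% rose in the 4 within-day comparisons in that order. Correlations of same-numbered mice ran from -0.109 to 0.219 over the sets, so the numbers were not taken as pairs. With the animal as a block, 0 members were called for efficiency at either day or for its day difference.

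Rrp9 rested on 1 to 11 counts a library in day 13 RNA, too few for a difference to be detectable. With 2 mice a group at day 13, a missed threshold does not show that a gene was unchanged. The cause of each shift between alternatives was not tested.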
